A study of Homo sapiens with 10 samples.

Results

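The heat shock response is the program by which a cell with unfolded proteins raises its chaperones. The transcription factor HSF1 binds heat shock elements in the promoters of chaperone genes, and the inducible HSP70 genes HSPA6, HSPA1A and HSPA1B, which are little used in unstressed cells, are among its best known targets. Immediate early genes such as ARC, FOS and JUN are switched on within minutes by kinase signals without new protein synthesis, and they also answer to stress. Both groups change quickly when culture conditions change.

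The samples described here are 4 of the 10 RNA-seq samples of the series, all of WM164, a human melanoma line. They were chosen by their levels of HSPA6, HSPA1B and ARC. In 2 of them, VDR-KD cells with 1,20(OH)2D3 and VDR-WT cells with 20(OH)D3, these 3 genes were low, and in the other 2, VDR-KD cells with 20(OH)D3 and VDR-WT cells with 1,20(OH)2D3, they were higher. Each side thus holds 1 sample of each genotype and 1 of each compound. The differences between the sides are therefore given as a description, with no test, and for every gene they come from the contrast that the choice rests on.

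VDR-KD cells are labelled as a knockout of VDR, the gene of the vitamin D receptor, and the paper calls them knocked down. VDR-WT cells are labelled as wild type with a scrambled infection. Every compound was given at 100 nM for 24 h in medium with 10% charcoal-treated serum, with 0.1% ethanol as the vehicle. The remaining 6 samples are VDR-KD and VDR-WT cells with 25(OH)D3, with 1,25(OH)2D3 and with ethanol alone. 20(OH)D3 and 25(OH)D3 carry a hydroxyl group on the side chain of vitamin D3, and 1,20(OH)2D3 and 1,25(OH)2D3 carry a further one at C1. Triplicates are mentioned in the submitters' notes, but the table has 1 column for each of the 10 conditions, so no condition has a replicate and no spread within a condition can be given. VDR mRNA lay between 11.96 and 14.8 FPKM in the 5 samples labelled VDR-KD, and between 5.54 and 9.63 FPKM in the 5 labelled VDR-WT. It was thus higher in the samples labelled VDR-KD, and the genotypes are named here as the labels have them. The treatment label of the VDR-KD sample with 20(OH)D3 reads 2(OH)D3, while its title reads 20OHD3, which was followed.

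The values are FPKM, fragments scaled to the length of the gene and to the size of the library, which allow levels of different genes to be compared per length. The sums of FPKM were 633213 and 651658 in the 2 low samples and 614230 and 641566 in the 2 higher ones. The median log2 shift of expressed genes from the mean of all samples lay between -0.01 and 0.03 in these 4 samples. Genes of the melanocyte lineage were high in all 4 samples, with PMEL between 3589 and 4910 FPKM and MLANA between 1800.4 and 2550.5 FPKM. Mitochondrially encoded genes took 8.74% and 8.59% of the FPKM in the low samples, against 7.18% and 7.32% in the higher ones. This share did not go with HSPA6 in the other 6 samples, where it was 7.32% and 8.19% with 1,25(OH)2D3, 6.57% and 9.43% with 25(OH)D3, and 8.66% and 8.75% with ethanol (VDR-KD given before VDR-WT).

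Because the samples are crossed, the difference between the sides is also the difference between the genotypes in how 1,20(OH)2D3 and 20(OH)D3 compare. A culture state that differed between dishes and a response to the compounds that depends on the genotype cannot be told apart in these samples.

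HSPA6, which encodes a strictly inducible HSP70 (GRCh38, chromosome 1, 161524540 to 161526910), was 0.468 FPKM in the VDR-KD sample with 1,20(OH)2D3 and 0.655 FPKM in the VDR-WT sample with 20(OH)D3. In the higher samples it was 31.6 FPKM (VDR-KD with 20(OH)D3) and 6.71 FPKM (VDR-WT with 1,20(OH)2D3). The low samples thus lay below both higher ones, by 5.80 on the log2 scale within VDR-KD and by 3.17 within VDR-WT. The entry of the table that carries the name HSPA6 spans a longer region than the gene, so its value may include neighboring transcripts. HSPA1B, a stress-inducible cytosolic HSP70 on chromosome 6 (31827735 to 31830255), was 12.6 and 7.03 FPKM in the low samples, against 107 FPKM in the higher VDR-KD sample and 25.6 FPKM in the higher VDR-WT sample. ARC, an immediate early gene known from synapses, was 0.269 and 0.207 FPKM in the low samples, against 25.2 and 3.15 FPKM.

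Cells given ethanol alone had 32.3 FPKM of HSPA6 (VDR-KD) and 9.37 FPKM (VDR-WT), close to the 2 higher samples of the same genotype. With 25(OH)D3 it was 44.5 and 15.7 FPKM, and with 1,25(OH)2D3 it was 0.720 and 0.176 FPKM. The order of HSPA6 over the 10 samples therefore has 4 values under 1 FPKM, the 2 low samples and both samples with 1,25(OH)2D3, and then none below 6.71 FPKM. Within VDR-KD the low samples were those of the compounds with a hydroxyl at C1, while within VDR-WT they were those with 1,25(OH)2D3 and 20(OH)D3.

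**Figure D1:**
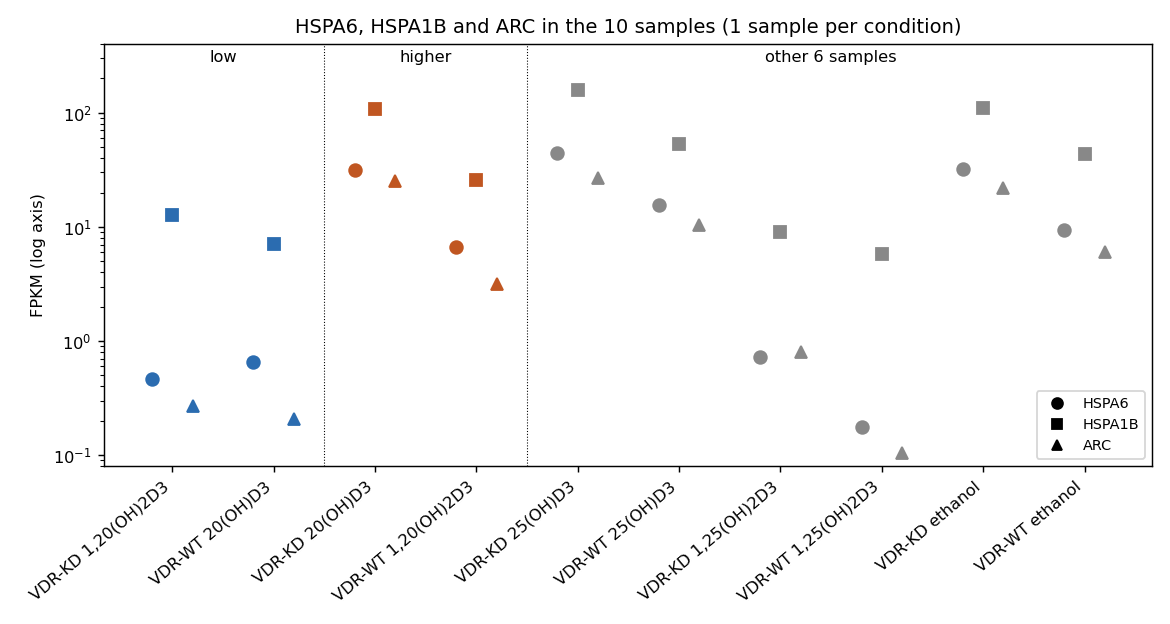
FPKM of HSPA6 (circles), HSPA1B (squares) and ARC (triangles) on a log axis in each of the 10 samples, 1 point per gene and sample, with the 2 low samples in blue, the 2 higher ones in orange and the other 6 in gray. HSPA6 lies under 1 FPKM in both low samples and with 1,25(OH)2D3 in both genotypes, and at 6.71 FPKM or more elsewhere.

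The promoter of HSPA6 carries a heat shock element of 3 alternating units, and those of HSPA1A and HSPA1B come within 1 letter of it. These stretches are shown because the same element also stands before SERPINH1, CHORDC1 and DNAJB6, chaperone genes that did not follow the low state and were picked after their values were seen. The stretches come from RefSeq on GRCh38.p14, are written 5′ to 3′ on the strand of the gene, and have in capitals the 13 letters nearest to the element GAANNTTCNNGAA or its reverse complement TTCNNGAANNTTC.
HSPA6 (chr1:161524458-161524486, plus strand): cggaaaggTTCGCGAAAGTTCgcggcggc
HSPA1A (chr6:31815429-31815457, plus strand): aaaccctgGAATATTCCCGACctggcagc
HSPA1B (chr6:31827625-31827653, plus strand): aacccctgGAATATTCCCGACctggcagc
SERPINH1 (chr11:75562169-75562197, plus strand): ttccaactTTCCAGAAGTTTCtcgggacg
CHORDC1 (chr11:90223089-90223117, minus strand): cgcgaccgGAAAATTCGCGAAggttcctg
DNAJB6 (chr7:157336865-157336893, plus strand): agagccgaGAACCTTCGCGAAggtggggc
The capitals begin 74 bases before the start of HSPA6, 106 before that of HSPA1A, 105 before that of HSPA1B, 76 before that of SERPINH1, 60 before that of CHORDC1 and 131 before that of DNAJB6. Among 27305 promoters from 250 bases before to 50 bases after a gene's start, 0.487% held the element on either strand with all 9 fixed letters and 6.36% held it with at most 1 mismatch. Of 49 promoters of heat shock genes that were not over 2-fold lower in both genotypes, 10 came within 1 mismatch. HSPA6 and HSPA1B were used to choose the samples and HSPA1A is nearly identical to HSPA1B, so no share is given for the genes that were lower. A match is a run of letters and says nothing of binding in these cells.

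A gene was said to follow the low state where log2 of FPKM plus 0.1 differed by over 1, that is over 2-fold, in the same direction in both genotypes. Of 12993 genes whose mean reached 1 FPKM in the 4 samples, 43 (0.331%) were over 2-fold lower in both low samples and 41 (0.316%) were over 2-fold higher. Only 20 of the 43 and 6 of the 41 carry the name of a protein-coding gene, although 9540 of the genes tested do. Without overlap between the sides, 1355 genes (10.4%) were lower and 1456 (11.2%) higher in the low samples. Across genes, which are not independent, the differences within VDR-KD and within VDR-WT had a Spearman correlation of -0.075. The differences of the 2 pairs were thus close to unrelated over the whole table. Of the 242 genes over 2-fold lower in the VDR-KD pair, 17.8% were also lower in the VDR-WT pair, and of the 248 in the VDR-WT pair, 17.3% were also lower in the VDR-KD pair. For genes over 2-fold higher, the shares were 14.1% of the 291 in the VDR-KD pair and 18.7% of the 219 in the VDR-WT pair. Opposite directions over 2-fold were found in 34 genes that were lower in the VDR-KD pair and in 43 that were lower in the VDR-WT pair. Of all 12993 genes tested, 248 were lower and 219 higher in the VDR-WT pair. In the VDR-KD pair, 242 were lower and 291 higher. Genes past 2-fold in either pair were thus past it in the other more often than all genes, in the same and in the opposite direction. The median difference over all genes was 0.01. When 1 of the 4 samples was left out and the lone sample of its side was set against both others, 81 to 101 genes were lower and 76 to 124 higher. Among 5974 protein-coding genes whose mean reached 10 FPKM, 3 were lower in both pairs, HSPA1A, HSPA1B and CRYAB, and none was higher.

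**Figure D2:**
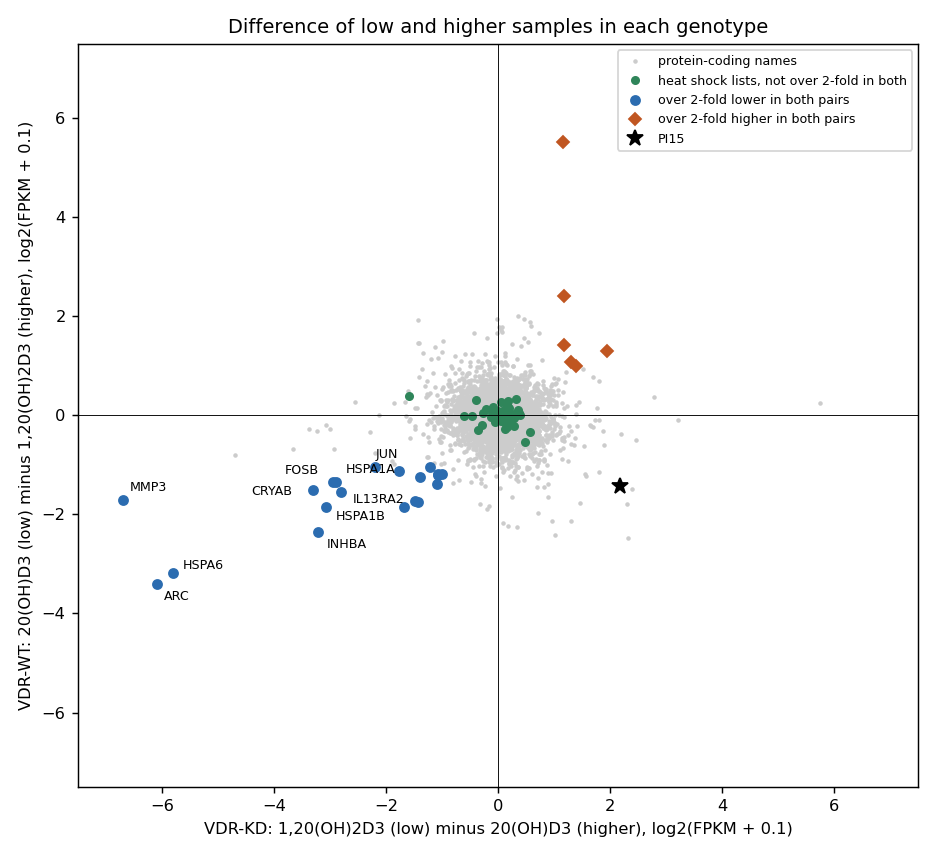
Each point is a gene with a protein-coding name, with the difference between the low and the higher sample of VDR-KD on the x axis and that of VDR-WT on the y axis, both in log2 of FPKM plus 0.1. The genes lower in both pairs (blue) reach -6.10 and -3.40 for ARC, whereas most genes of the heat shock lists (green) lie near 0.

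Chaperones followed the low state in a narrow set. The 7 heat shock lists (HSP70, HSP40, HSP90 with its cochaperones, small heat shock proteins, chaperonins, other HSF1 targets and the heat shock factors) hold 74 names, of which 65 have an entry of their own and 59 passed the filter on low values. Of these 59, 4 were lower in both pairs, none was higher and 55 were neither. HSPA6 and HSPA1B chose the samples and HSPA1A may share reads with HSPA1B, and without these 3 genes 1 of 56 was lower, CRYAB, beside 0.331% of all genes tested. The median difference of the 59 was 0.02, beside 0.01 over all genes tested. The 4 were HSPA6, HSPA1A, HSPA1B and CRYAB.

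HSPA1A, the twin gene of HSPA1B on chromosome 6 (31815464 to 31817946), was 16.6 and 11.2 FPKM in the low samples, against 123 and 28.7 FPKM in the higher ones. The differences were -2.89 within VDR-KD and -1.35 within VDR-WT on the log2 scale. HSPA1A and HSPA1B are nearly identical and may share reads, so their values are not separate measurements. CRYAB encodes alpha-B crystallin, a small heat shock protein that holds unfolded proteins in solution. It was 3.55 and 3.56 FPKM in the low samples, against 36.1 and 10.2 FPKM. The low samples were close to each other, and the higher VDR-KD sample stood well above the higher VDR-WT sample, as it did for HSPA6 and ARC.

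Most other genes of the response did not follow. DNAJB1, the HSP40 partner of inducible HSP70 and a common marker of HSF1 activity, was 113 and 82.5 FPKM in the low samples, against 114 and 80.3 FPKM in the higher ones. HSPH1, which encodes the nucleotide exchange factor HSP110, was 99.2 and 72.2 FPKM, against 87.3 and 73.3 FPKM. DNAJB6, a further HSP40 with the element shown above, was 69.0 and 73.9 FPKM, against 72.6 and 73.6 FPKM. These 3 genes differed by less than 0.2 on the log2 scale in either pair. BAG3, a cochaperone that links HSP70 to autophagy, was 22.4 and 21.3 FPKM, against 21.6 and 23.1 FPKM. In all, 29 of the 59 genes differed by less than 0.2 on the log2 scale in both pairs, among them 4 of 9 HSP70 genes, 8 of 11 HSP40 genes, 6 of 11 genes of the HSP90 list and 5 of 6 chaperonins.

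Other genes of the lists, named after their values were seen, differed by over 0.2 in at least 1 pair. HSP90AA1, the stress-inducible cytosolic HSP90, was 1085.7 and 878 FPKM in the low samples, against 894 and 1016.5 FPKM. HSPB1, which encodes HSP27, differed by 0.35 in the VDR-KD pair and 0.10 in the VDR-WT pair. SERPINH1, a collagen chaperone with the element shown above, was 90.6 and 127 FPKM, against 77.5 and 133 FPKM. CHORDC1, a cochaperone of HSP90, was 73.9 and 58.9 FPKM, against 61.0 and 57.9 FPKM. The levels of SERPINH1 and CHORDC1 in the low samples overlapped those in the higher ones. RGS2, a regulator of G protein signaling, was 2.08 and 4.56 FPKM, against 6.48 and 3.46 FPKM, so that it was lower in the VDR-KD pair alone. The mRNAs of the factors did not go down in both pairs. HSF1 differed by 0.17 in the VDR-KD pair and 0.29 in the VDR-WT pair. HSF2 differed by -0.41 and 0.32, which are opposite directions. HSPA8, the constitutive HSP70, and HSPE1 share an entry with other genes and are not given.

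**Figure D3:**
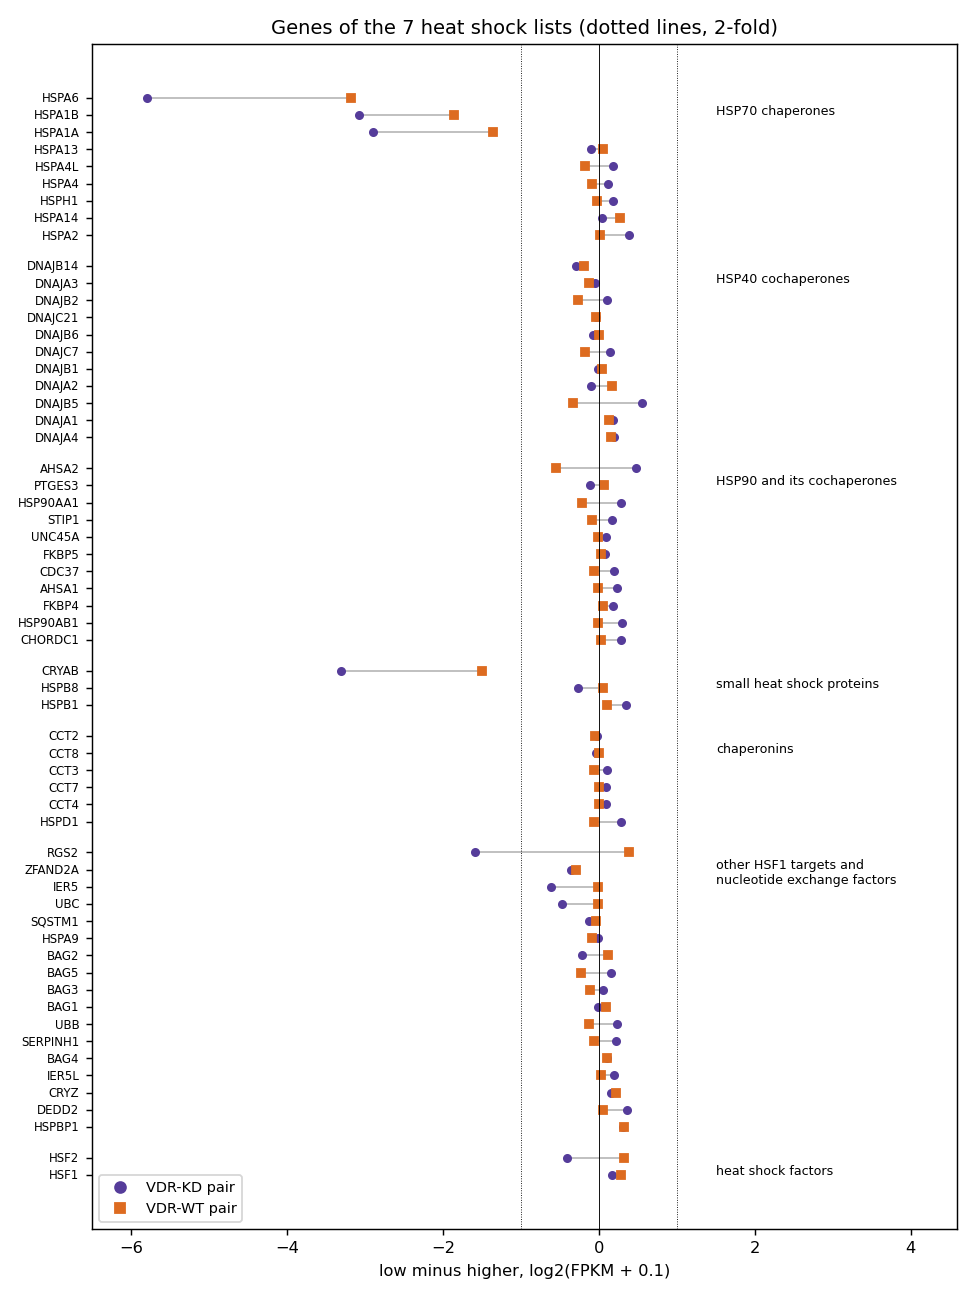
Difference between the low and the higher sample in VDR-KD (circles) and in VDR-WT (squares), in log2 of FPKM plus 0.1, for the 59 genes of the 7 heat shock lists that passed the filter. HSPA6, HSPA1B, HSPA1A and CRYAB lie beyond the dotted 2-fold line in both pairs and the other 55 do not.

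Among immediate early genes, 28 of 33 passed the filter and 3 were lower in both pairs, ARC, by which the samples were chosen, FOSB and JUN, beside 0.331% of all genes tested. Without overlap 9 were lower, beside 10.4% of all genes tested, and 1 was higher. FOSB was under 1 FPKM in both low samples and passed the filter through the higher ones. The median difference of the 28 was -0.25, that of the VDR-KD pair -0.47 and that of the VDR-WT pair -0.01. FOSB, a partner of JUN in the transcription factor AP-1, was 0.428 and 0.423 FPKM in the low samples, against 3.98 and 1.22 FPKM. JUN was 2.66 and 2.19 FPKM, against 12.5 and 4.62 FPKM. FOS, singled out after its values were seen, was 5.81 and 11.5 FPKM, against 17.6 and 15.8 FPKM, and EGR1 was 14.6 and 16.2 FPKM, against 29.2 and 22.1 FPKM. Both lay lower in the low samples without overlap but stayed within 2-fold in VDR-WT. MYC, JUNB and DUSP1 overlapped between the sides. Of the 13 genes of MAPK output and feedback that passed, such as DUSP6 and SPRY2, none was lower or higher in both pairs and the median was 0.07.

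Secreted proteins made up much of the remainder. MMP3, the metalloproteinase stromelysin, was listed at 0 in the low VDR-KD sample and was 0.797 FPKM in the low VDR-WT sample, against 10.3 and 2.84 FPKM in the higher ones. Its entry covers a region that MMP1 and MMP10 share. INHBA, which encodes the subunit of activin A, was 0.683 and 0.322 FPKM, against 7.21 and 2.05 FPKM. IL13RA2, a decoy receptor for interleukin 13, was 0.690 and 0.565 FPKM, against 5.41 and 1.84 FPKM. For MMP3, INHBA and IL13RA2 both low samples lay under both higher ones. Each of these genes was under 1 FPKM in both low samples and passed the filter through the higher ones. GADD45B, a stress sensor of the GADD45 family, was 3.23 and 2.35 FPKM, against 11.4 and 5.22 FPKM. DKK1, a secreted inhibitor of Wnt signaling, was 1.35 and 0.874 FPKM, against 3.29 and 1.92 FPKM. PTHLH, which encodes the parathyroid hormone-related protein, was 0.672 and 0.340 FPKM, against 1.99 and 1.38 FPKM. EPHB6, ZNF221, BOLA2B, C3, ZC3H12A and CPNE5 had mean differences between -1.61 and -1.09. PTHLH, ZNF221 and CPNE5 were also under 1 FPKM in both low samples and passed the filter through the higher ones. BOLA2B has a near-identical copy and is uncertain. In EPHB6 and C3 the sides overlapped, the genotypes standing apart in the level of these genes. In 17 of the 20 genes the sides did not overlap, beside 10.4% of all genes tested that were lower without overlap. The rule of over 2-fold in both pairs of these same samples makes this likely.

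The means of the 20 genes over the 4 samples had a median of 2.41 FPKM, so most were low. Just inside the rule stood CPNE5, with -1.01 in the VDR-KD pair and a mean of 1.00 FPKM. Just outside stood PMEPA1, a target of TGF-beta, with -1.15 in the VDR-KD pair and -0.97 in the VDR-WT pair. MMP10 and ANKRD1 fell under the filter with means of 0.916 and 0.891 FPKM, and their differences were -2.90 and -3.30.

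Several genes were over 2-fold lower in the VDR-KD pair alone. CXCL8, which encodes interleukin 8, was 0.922 FPKM in the low VDR-KD sample and 2.57 FPKM in the low VDR-WT sample, against 12.8 and 4.18 FPKM. TGFBI, an extracellular matrix protein induced by TGF-beta, was 0.527 and 0.285 FPKM, against 5.17 and 0.340 FPKM. In the list of TGF-beta and YAP targets, 10 passed, none was past 2-fold in both pairs, 6 were lower without overlap, and the median was -0.48, with -0.80 in the VDR-KD pair and -0.10 in the VDR-WT pair. In that of NF-kB targets 9 passed, 3 were lower without overlap, and the median was -0.36. Over all genes tested, 10.4% were lower without overlap and the median was 0.01.

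The 6 protein-coding genes higher in both low samples were all low in level. GRB14, an adaptor that binds the insulin receptor, was 4.67 and 3.94 FPKM in the low samples, against 1.15 and 1.54 FPKM. THRB, the thyroid hormone receptor beta, was 5.92 and 3.86 FPKM, against 2.58 and 1.38 FPKM. CMTM5, OLIG1 and C6orf226 had mean differences of 1.79, 1.19 and 1.19. NT5DC4 was 13.4 and 4.50 FPKM, against 5.97 FPKM and a listed 0, and overlapped between the sides. Noncoding entries held the largest jumps. RNU6-33P, a pseudogene of a small nuclear RNA, was listed at 0 in both low samples, against 1236 and 2001.2 FPKM in the higher ones, and also at 0 in all of the other 6 samples, those with ethanol included, where HSPA6 was high.

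The lists of large cell programs had small median differences, the largest of them in the VDR-KD pair. None of 52 genes of cytosolic ribosomal proteins, 28 proteasome subunits, 16 genes of the unfolded protein response, 16 of the integrated stress response, 15 of DNA replication, 17 of mitosis, 21 of cholesterol synthesis and 12 of melanocyte differentiation was past 2-fold in both pairs, but only 0.331% of all genes were lower and 0.316% higher, and a count of 0 in lists of this size is near that share. The medians of these lists lay between -0.01 and 0.14, beside 0.01 over all genes tested. Those of cholesterol synthesis (0.145) and melanocyte differentiation (0.129) lay above the upper quartile of single genes (0.125). In the VDR-KD pair the medians were 0.27 for cholesterol synthesis, 0.39 for melanocyte differentiation and 0.24 for the unfolded protein response. In the VDR-WT pair they were -0.02, -0.08 and 0.03. Of the 4 mitochondrially encoded genes that passed, none was past 2-fold, all were higher without overlap in the low samples, and the median was 0.31.

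PI15, a secreted protease inhibitor, and PRSS33, a serine protease singled out after its values were seen, went with the compound and not with the state. In VDR-KD, PI15 was 64.6 FPKM under 1,20(OH)2D3 and 14.3 FPKM under 20(OH)D3, and in VDR-WT it was 58.2 and 21.7 FPKM under the same compounds. PRSS33 was 6.18 and 1.18 FPKM in VDR-KD, and 7.71 and 2.17 FPKM in VDR-WT. Both were thus higher with 1,20(OH)2D3 in either genotype, although that compound gave the low sample in one genotype and the higher sample in the other. CYP24A1, which inactivates vitamin D and is its classical target, had a mean of 0.307 FPKM in the 4 samples and did not pass the filter.

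Markers of other cell types were mostly near 0, and their part in the results was not tested. Of 8 fibroblast markers 3 passed the filter, COL3A1 was at 0 in 3 of the 4 samples, and the list summed to 132 and 97.2 FPKM in the low samples, against 99.3 and 94.3 FPKM, nearly all of it from LUM. Keratinocyte markers summed to 5.49 and 10.4 FPKM, against 10.97 and 11.04 FPKM, nearly all of it from KRT10, with KRT5, KRT14, KRT1 and KRT6A at 0 in all 4. Endothelial markers summed to 10.1 and 3.49 FPKM, against 10.9 and 3.88 FPKM, with CLDN5 at 0, and leukocyte markers to 3.65 and 2.95 FPKM, against 3.07 and 2.11 FPKM, with CD3E at 0.

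Against ethanol of the same genotype, 13 of the 20 genes were over 2-fold lower in both low samples and none was over 2-fold lower in both higher samples. The higher samples thus resembled ethanol for these genes. HSPA6 differed from ethanol by -5.83 and -3.65 in the low samples, and by -0.03 and -0.48 in the higher ones. ARC differed by -5.90 and -4.33 in the low samples, and by 0.20 and -0.93 in the higher ones. These comparisons use the samples that the choice rests on.

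The other 6 samples were not used to choose the 4 and allow the genes to be followed again. With 1,25(OH)2D3 against ethanol, 10 of the 20 genes were over 2-fold lower in both genotypes and 15 were lower to any extent. Of 9540 protein-coding genes, 0.587% were over 2-fold lower in both and 3015 were lower to any extent in both. With 25(OH)D3 against ethanol none of the 20 was over 2-fold lower in both. The 2 comparisons share the ethanol samples. The 10 hold HSPA6, HSPA1B and ARC, by which the samples were chosen, and HSPA1A, which is nearly identical to HSPA1B. The others of the 10 were CRYAB, MMP3, INHBA, IL13RA2, JUN and GADD45B. Of these, MMP3, INHBA and IL13RA2 were under 1 FPKM in both low samples and passed the filter through the higher ones. The count of 10 is therefore a description and not a test of the choice. CRYAB was 5.60 FPKM (VDR-KD) and 2.92 FPKM (VDR-WT) with 1,25(OH)2D3, against 25.3 and 11.2 FPKM with ethanol. INHBA was 0.290 and 0.319 FPKM with 1,25(OH)2D3, against 9.58 and 4.46 FPKM. ZC3H12A, CPNE5 and ZNF221 were within 2-fold of ethanol with 1,25(OH)2D3, and EPHB6 and BOLA2B went in opposite directions in the 2 genotypes. Of the 6 genes higher in the low samples, 1 was over 2-fold lower and none was over 2-fold higher with 1,25(OH)2D3 in both genotypes.

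**Figure D4:**
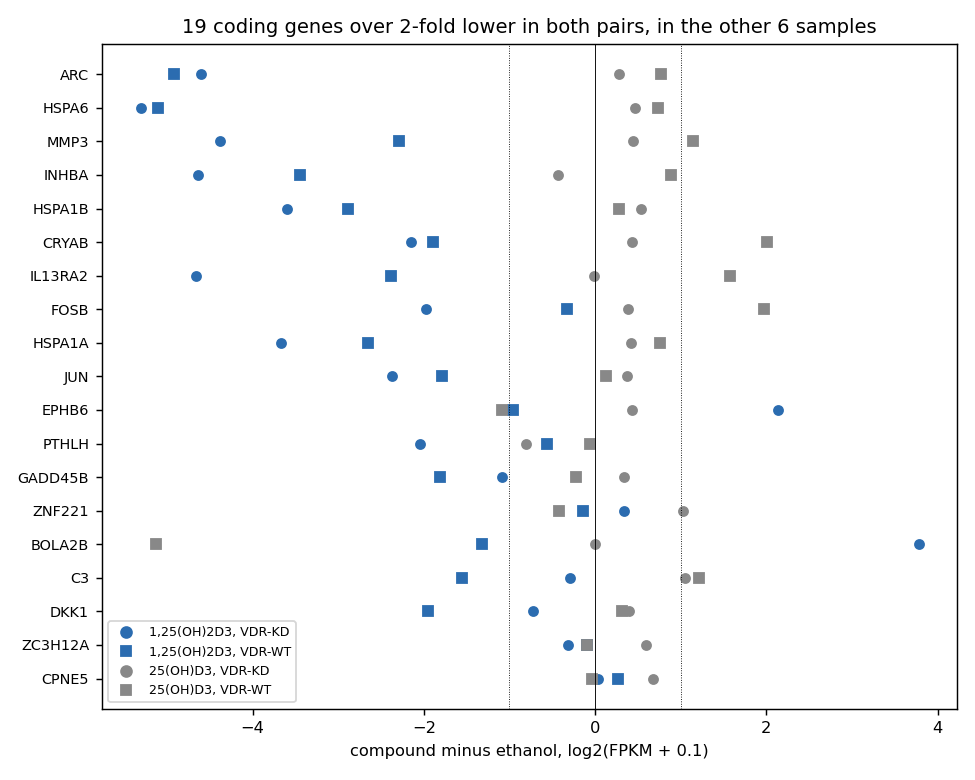
Difference from ethanol of the same genotype, in log2 of FPKM plus 0.1, for 19 of the 20 protein-coding genes over 2-fold lower in both low samples, with 1,25(OH)2D3 in blue and 25(OH)D3 in gray, VDR-KD as circles and VDR-WT as squares. With 1,25(OH)2D3, 15 of the 19 lie below 0 in both genotypes, among them HSPA6, HSPA1B and ARC, by which the samples were chosen. With 25(OH)D3 most lie above 0.

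A fit with limma over these 6 samples, with the log2 level of HSPA6 and the genotype as terms, asked which genes vary with HSPA6 where it was not used to choose samples. It leaves 3 residual degrees of freedom. Of 13123 genes, 174 (1.33%) had a positive slope and 325 (2.48%) a negative one at an adjusted p under 0.05 (Benjamini-Hochberg over all genes tested). Since HSPA6 was low in the 2 samples with 1,25(OH)2D3 and in no other of the 6, this slope cannot be told apart from the response to 1,25(OH)2D3. The counts rested on these samples, and they came to 16 and 24 without the VDR-KD sample with 1,25(OH)2D3, and to 44 and 38 without the VDR-WT sample with it.

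The smallest p-values of positive slopes belonged to ARC (0.91 per log2 unit of HSPA6, standard error 0.0352, limma adjusted p = 3.71e-05), HSPA1B (0.63, standard error 0.0323) and HSPA1A (0.63, standard error 0.0328), and then to ALCAM and CLU. INHBA (slope 0.75), IL13RA2 (0.72), MMP3 (0.69), CRYAB (0.49), CXCL8 (0.44), JUN (0.40), DKK1 (0.28) and GADD45B (0.27) also passed. In all, 10 of the 15 genes lower in both pairs that could be fitted beside HSPA6 had a positive slope that passed. The 10 include ARC and HSPA1B, by which the samples were chosen, and HSPA1A. They also include MMP3, INHBA and IL13RA2, which were under 1 FPKM in both low samples and passed the filter through the higher ones. The remaining genes of the 10 were CRYAB, JUN, DKK1 and GADD45B, and the count is a description. Over all genes tested, 1.33% passed with a positive slope. Among those of the 15 that did not pass was EPHB6, with a negative slope (-0.14, limma adjusted p = 0.575). FOSB did not pass (slope 0.33, limma adjusted p = 0.0947), with 0.773 FPKM in VDR-WT with 1,25(OH)2D3 against 0.992 FPKM with ethanol. Of 58 genes of the heat shock lists that were fitted, 3 passed with a positive slope, HSPA1A, HSPA1B and CRYAB, and none with a negative one, while 6 positive and 3 negative slopes had an unadjusted limma p under 0.05. DNAJB1 had a slope of -0.07 (limma adjusted p = 0.0963) and BAG3 one of -0.01 (limma adjusted p = 0.792). PMEPA1 and TGFBI also passed. Without the VDR-KD sample with 1,25(OH)2D3, the calls of CRYAB, DKK1, GADD45B, IL13RA2, PMEPA1 and TGFBI were lost (limma adjusted p from 0.0718 to 0.150). Without the VDR-WT sample with 1,25(OH)2D3, those of CRYAB, DKK1, GADD45B and PMEPA1 were lost (limma adjusted p of 0.111 or more). The call of DKK1 was lost without any of the 6. That of TGFBI was also lost without either VDR-KD sample, with ethanol or with 25(OH)D3, and without the VDR-WT sample with 25(OH)D3. CRYAB was lost without either of those VDR-KD samples as well, and PMEPA1 without VDR-KD with ethanol. FOSB passed without VDR-WT with ethanol (limma adjusted p = 0.0179).

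The genes of the fit were then looked up in the 4 crossed samples, which the fit did not use. The 169 genes with a positive slope that passed and could be looked up had a median difference of -0.38 in the VDR-KD pair and of 0.06 in the VDR-WT pair, beside 0.01 and -0.00409 over the 12750 genes in both tables. The 318 with a negative slope had medians of 0.28 in the VDR-KD pair and -0.18 in the VDR-WT pair. The medians of either group thus had opposite signs in the 2 pairs. The low sample of VDR-KD and the higher sample of VDR-WT both had 1,20(OH)2D3. Of the 12750 genes, 31 (0.243%) were over 2-fold lower in both pairs and 32 (0.251%) were over 2-fold higher. Among the 169, 10 were over 2-fold lower in both pairs, ARC and HSPA1B, by which the samples were chosen, and HSPA1A included. Without these 3 genes, 7 of 166 were, and 3 of the 7 were under 1 FPKM in both low samples and so passed the filter through the higher ones. These counts are a description. Of the 318, none was over 2-fold lower in both pairs and 1 was over 2-fold higher. Both counts are near the shares of the 12750 genes for a group of this size.

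The genes with the smallest p-values of negative slopes were PI15, SPP1, SEMA3B, TRPM1 and CYP24A1. These were high with 1,25(OH)2D3 in both genotypes, CYP24A1 with 77.3 and 56.8 FPKM against 0.452 and 0.0777 FPKM with ethanol. SPP1, which encodes osteopontin, was 42.7 and 52.3 FPKM in the low samples, against 51.4 and 62.2 FPKM in the higher ones. SEMA3B, a secreted semaphorin, was 9.74 and 6.94 FPKM, against 5.84 and 10.1 FPKM. TRPM1, a cation channel of melanocytes, was 47.4 and 29.9 FPKM, against 29.6 and 36.9 FPKM. All 3 overlapped between the sides. ALCAM, a cell adhesion molecule with a slope of 0.35, was 26.7 and 26.0 FPKM in the low samples, against 48.4 and 25.7 FPKM, so that it was lower in the VDR-KD pair alone. CLU, the secreted chaperone clusterin with a slope of 0.33, was 6.64 and 11.9 FPKM, against 63.5 and 14.8 FPKM, with differences of -3.24 in the VDR-KD pair and -0.32 in the VDR-WT pair.

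**Figure D5:**
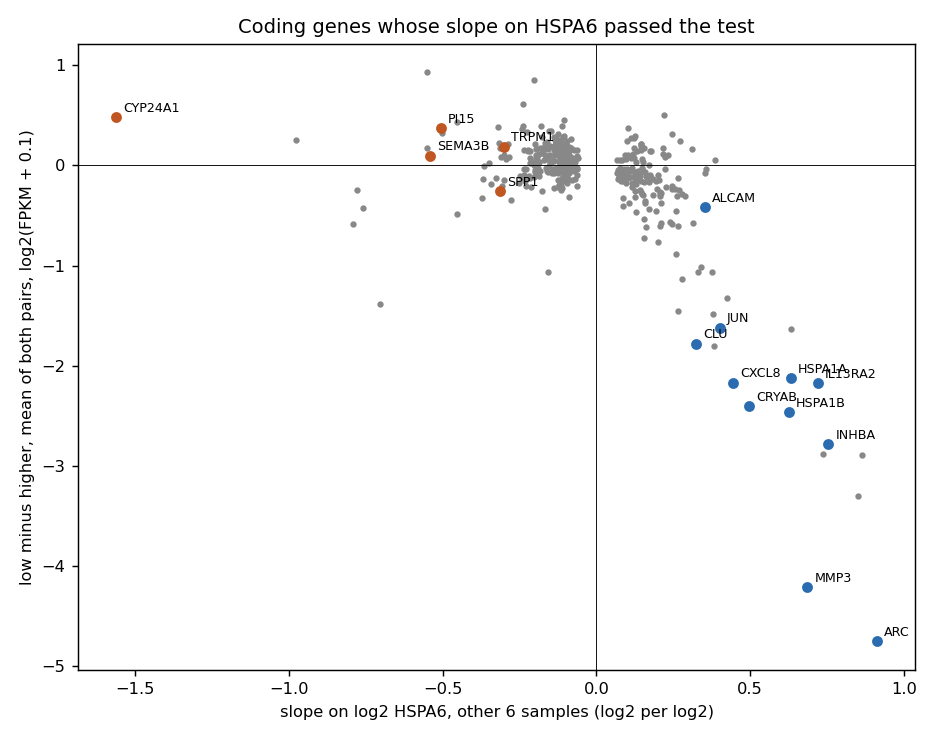
Each point is a protein-coding gene whose slope on HSPA6 over the other 6 samples passed the test, with that slope on the x axis and the mean difference between low and higher samples, in log2 of FPKM plus 0.1, on the y axis. ARC, by which the samples were chosen, has the steepest positive slope (0.91) and lies at -4.75, INHBA (0.75) lies at -2.78 and ALCAM (0.35) at -0.42, whereas PI15 and CYP24A1 (under the filter but drawn), with negative slopes, lay at 0.37 and 0.48.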

How the data were processed

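RNA of 10 samples of WM164 cells was sequenced, 1 per genotype and treatment. Per the submitters' processing notes, the authors aligned reads with STAR 2.7.1a to GRCh38, assembled them with Cufflinks 2.2.1 and summarized them with Cuffdiff. The annotation, read filters, strand setting and treatment of reads with several matches, not given in the sources used here, can change these values. The deposited values are FPKM per gene entry, scaled by the authors to gene length and library size, and were used without further scaling. The table holds 54826 entries, of which 2050 merge several names. Read counts were not used here, so the depth of each sample is unknown and no counting interval is given.

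Groups came from the labels, and the 4 samples from the rule given at the outset. Members, lists and tests were chosen with earlier results of these data known. Differences are low minus higher, in log2 of FPKM plus 0.1, for genes whose mean over the 4 samples reached 1 FPKM. The added constant makes the fold changes of low genes too small. The other 6 samples were fitted with limma 3.58.1 in R 4.3.3 (lmFit, eBayes with a trend). With 1 sample per condition, p-values measure the spread between these samples, which may be technical. On simulated data with known slopes the fit called 12 of 50 genes at a slope of 0.1, 38 of 50 at 0.3 and 48 of 50 at 0.5. It called 7 of 12711 unchanged genes. The simulated noise was independent between genes and held no effect of a compound, unlike the 6 samples.

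Named were HSPA6, HSPA1B and ARC, VDR, HSF1, HSF2 and CYP24A1, heat shock and immediate early genes over 2-fold in both pairs, heat shock genes under 0.2 in both pairs, up to 4 members of each other list with the largest difference, the 12 largest falls and rises among protein-coding names over 2-fold in both pairs, and the 5 smallest p-values of the fit in each direction. A few genes that the rule names are not reported here. Genes outside this rule were chosen after their values were seen. Entries with merged, clone or noncoding names were passed over in it. Alternatives changed the constant, the filter, the scaling, the call rule, the covariate, the genotype term, the trend and the samples included. Names and coordinates came from GENCODE 29 and promoters from RefSeq on GRCh38.p14. Python 3.11.15 with numpy 2.4.6, pandas 2.3.3 and matplotlib 3.10.9 was used.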

Additional observations from a re-analysis of the deposited data

Results flagged for a closer look

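In 26 protein-coding genes, 25 of them given here, the 1,20(OH)2D3 sample lay on opposite sides of the 20(OH)D3 sample in VDR-KD and in VDR-WT, over 2-fold each time. The values below are the log2 difference of 1,20(OH)2D3 and 20(OH)D3 in VDR-KD minus that in VDR-WT. With 1 sample per condition this difference was not tested, and for HSPA6, HSPA1B and ARC it is what the samples were chosen by.

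The inducible chaperones and immediate early genes were at ARC -9.50, HSPA6 -8.97, HSPA1B -4.92, CRYAB -4.81, FOSB -4.29, HSPA1A -4.25 and JUN -3.24. The other falls were at MMP3 -8.42, INHBA -5.57, IL13RA2 -4.35, EPHB6 -3.21, PTHLH -3.19, GADD45B -2.90, ZNF221 -2.63, BOLA2B -2.48, C3 -2.29, DKK1 -2.27, ZC3H12A -2.27 and CPNE5 -2.19. The differences of the opposite sign were at C6orf226 2.37, OLIG1 2.39, THRB 2.58, GRB14 3.23, CMTM5 3.58 and NT5DC4 6.67.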

How the results depend on the processing

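The counts of genes over 2-fold in both pairs moved with the treatment of low values. The main counts were 43 lower and 41 higher. They were 14 and 11 with 1 added before the logarithm, 11 and 9 at a mean of at least 5 FPKM, 107 and 78 at 0.5 FPKM, and 369 and 264 with no filter. Requiring no overlap and a mean over 2-fold gave 75 and 90, and a limit of 1.5-fold gave 93 and 105. Without 1 of the 4 samples, and with the lone sample set over 2-fold from both of the other side, counts were 81 to 101 lower and 76 to 124 higher. Of the 20 protein-coding genes lower in both pairs, 7 remained with 1 added and 7 at 5 FPKM. No difference of a gene called in both pairs changed sign under the alternatives run.

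Of the slopes on HSPA6, 174 positive and 325 negative ones passed. These counts were 79 and 166 with no filter, 43 and 68 with no genotype term, 82 and 104 with no trend, and 16 to 93 and 24 to 184 without 1 of the 6 samples. Apart from leaving out samples, 13 values of single slopes lost their call, for CRYAB, DKK1, MMP3, PMEPA1 or TGFBI (limma adjusted p from 0.0515 to 0.114), and no slope named in the text changed sign. The cause was not tested. No paired analysis was possible because each condition has 1 sample and the labels give no replicate numbers. Unknown depth limits what can be said of genes near 1 FPKM.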
